A study of Sus scrofa with 2 samples.

Results

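The cells described here are pig skin cells with a high count of CCR7, taken as dendritic cells and chosen by their UMI counts and not by clustering. A cell was counted as CCR7-high when its droplet barcode held at least 5 unique molecular identifiers (UMIs, each standing for 1 captured transcript) of CCR7, no UMI of the T cell gene CD3E, under 1% of its UMIs on the collagen genes COL1A1, COL1A2 and COL3A1, and under 0.3% on the basal keratin KRT5. All barcodes were first held to the study's maxima of 4500 genes, 30000 UMIs and 10% of UMIs on mitochondrial genes, here the 13 protein-coding ones. This gave 117 CCR7-high cells among 6998 filtered cells, of 9239 barcodes in all. There were 53 of 2775 filtered cells in the fresh library, 1.91% with an exact binomial 95% interval of 1.43 to 2.49%, and 64 of 4223 in the cryopreserved library, 1.52% with an interval of 1.17 to 1.93%. Without cells that held any UMI of the T or B cell markers CD3D, CD3G, CD2, CD79A, CD79B and MS4A1, the shares were 0.685% fresh and 0.829% cryopreserved, in the opposite order. That left 19 fresh and 35 cryopreserved cells, with median depths of 16008 and 9342 UMIs. A limit of any UMI depends on depth, and the part of depth in this order was not tested. These and all further intervals cover counting error only.

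The study prepared single cells from the dorsal skin of healthy male farm pigs with an enzymatic whole-skin dissociation kit, removed dead cells and aggregates by fluorescence-activated sorting, and read 3′ transcript ends with the 10x Genomics V3 chemistry. The fresh library came from cells used directly after isolation, and the cryopreserved library from cells frozen in fetal bovine serum with 10% DMSO, stored in liquid nitrogen and thawed. The animal of origin is not given for either library. With 1 library per condition there is no spread between samples, so no test was made, and a difference between them cannot be told apart from a difference between animals, dissociations or sequencing runs. The libraries shared 6 barcode sequences, none of them a CCR7-high cell.

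CCR7 is a chemokine receptor that guides cells along gradients of CCL19 and CCL21 into lymphatic vessels and on to lymph nodes. Skin dendritic cells and the Langerhans cells of the epidermis switch it on as they mature. They then also carry more MHC class II with bound peptide and more of the costimulatory proteins CD80 and CD86, which T cells need to be activated. The change is driven in large part by the NF-kB family of transcription factors, and cells in this state have been described with both stimulatory and inhibitory ligands.

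NF-kB binding motifs were looked for in the 250 bases before the RefSeq gene start (assembly Sscrofa11.1, the build of the deposited counts). The motif searched was GGGA, any 2 bases and then TTCC, on either strand, overlapping matches included. It was present in 461 of 19556 such windows of protein-coding genes (2.36%), and in 4 of 48 windows (8.33%) of the listed NF-kB pathway, survival, and maturation and migration genes. The 4 were ICAM1, IKBKB, LAD1 and NFKBIA, and so 2 of 19 windows were of the NF-kB list, 2 of 19 of the maturation list and none of 11 of the survival list. None of 13 windows of the genes described below as higher in both CCR7-high sets held it. Of 12 windows of the genes described below as lower in both, 1 held it. A match is a description of letters, not a binding site. Windows of CCR7, IKBKB and NFKBIA are shown because they belong to the receptor that defines the cells, to a kinase of the pathway that was higher in them, and to the pathway's inhibitor, whose level was near that of other cells. They lie at chr12:21857036-21857285 for CCR7, chr17:11289357-11289606 for IKBKB and chr7:64507869-64508118 for NFKBIA, all on the + strand directly upstream of the gene. Capitals mark the bases matched by the motif.
CCR7: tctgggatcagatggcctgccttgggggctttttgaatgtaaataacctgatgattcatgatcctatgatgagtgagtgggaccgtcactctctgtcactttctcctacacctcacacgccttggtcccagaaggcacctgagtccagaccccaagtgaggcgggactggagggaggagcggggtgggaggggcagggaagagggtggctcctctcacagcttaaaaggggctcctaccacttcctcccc
IKBKB: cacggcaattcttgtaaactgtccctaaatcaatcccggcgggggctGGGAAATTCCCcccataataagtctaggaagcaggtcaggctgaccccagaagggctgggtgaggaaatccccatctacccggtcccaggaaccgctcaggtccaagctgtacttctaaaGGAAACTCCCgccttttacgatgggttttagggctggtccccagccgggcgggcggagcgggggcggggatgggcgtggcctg
NFKBIA: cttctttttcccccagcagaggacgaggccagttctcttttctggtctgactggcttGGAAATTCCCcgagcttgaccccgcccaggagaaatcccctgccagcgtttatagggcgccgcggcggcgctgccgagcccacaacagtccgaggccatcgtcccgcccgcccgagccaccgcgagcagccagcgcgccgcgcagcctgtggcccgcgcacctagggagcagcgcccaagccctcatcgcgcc
The CCR7 window held no match, which says only that these letters are not in this window. The IKBKB window held 3 matches, of which 2 overlap on opposite strands, and the NFKBIA window held 1.

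CCR7 itself chose the cells, so its level is given as a description. The fresh CCR7-high cells held 5 to 95 CCR7 UMIs with a median of 18, and the cryopreserved ones 5 to 91 with a median of 17. Summed over the cells, the level was 1634 CPM (counts per 1e6 UMIs of the same cells) in the fresh and 1866 CPM in the cryopreserved library. All other filtered cells were at 14.5 and 17.2 CPM. At the edge of the rule, 4 fresh and 5 cryopreserved CCR7-high cells held exactly 5 UMIs, and 32 fresh and 62 cryopreserved cells that met the other limits held 1 to 4. Before the limits on CD3E, collagen and KRT5 were applied, 83 fresh and 97 cryopreserved cells held at least 5 CCR7 UMIs, and 29 and 32 of these had CD3E, the T cell receptor subunit. T cells also use CCR7 to enter lymph nodes, and the T cells of these libraries (at least 2 CD3E UMIs, 115 fresh and 199 cryopreserved) stood at 342 and 402 CPM. As a gauge of free RNA, 5 of 631 fresh fibroblast-like cells (0.792%) and 3 of 950 cryopreserved ones (0.316%) had any CCR7 UMI, at a median depth of 16051 and 11779 UMIs. The CCR7-high cells had a median depth of 16264 UMIs (5935 to 27741) and 3216 genes in the fresh library, and 11796 UMIs (4683 to 23160) and 2701 genes in the cryopreserved library. A fixed minimum of 5 UMIs thus asked for a larger share of a cell's transcripts in the cryopreserved library. The median CCR7 level per cell was 1052 CPM fresh and 1689 CPM cryopreserved.

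**Figure D1:**
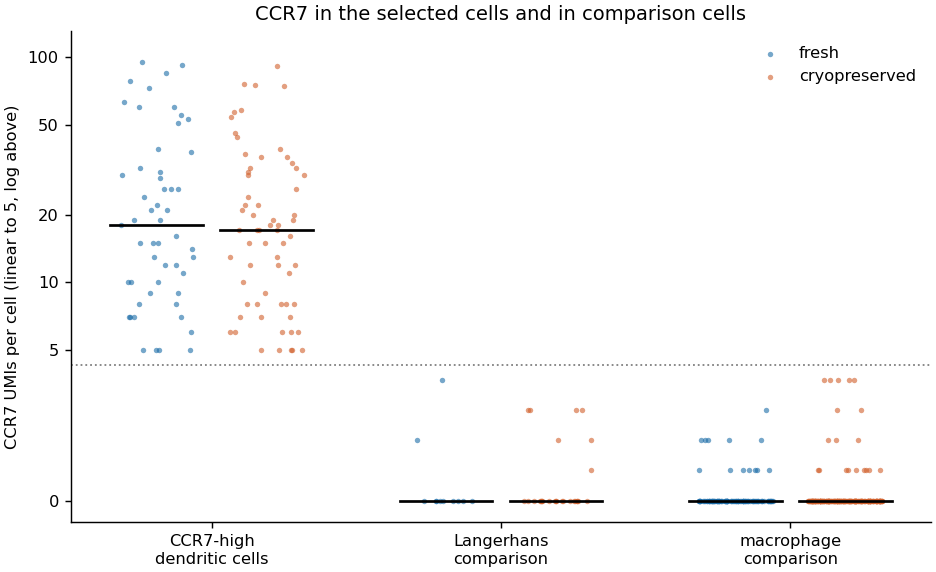
CCR7 UMIs per cell (linear up to 5, log above) in CCR7-high, Langerhans comparison and macrophage comparison cells of each library; each point is 1 cell, black bars are medians and the dotted line marks the limit of the rule. The CCR7-high cells reach 95 UMIs fresh and 91 cryopreserved with medians of 18 and 17, and most comparison cells are at 0.

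The label of dendritic cell was checked against cell type markers. SLA-DRA, SLA-DRB1 and SLA-DQB1, the pig MHC class II chains that present peptide to CD4 T cells, together reached at least 10 UMIs in 50 of 53 fresh CCR7-high cells (94.3%) and 61 of 64 cryopreserved ones (95.3%). The same was true of 1 of 631 fresh and 2 of 950 cryopreserved fibroblast-like cells. It was also true of 74 of 107 fresh and 109 of 214 cryopreserved macrophage comparison cells and of all 11 and 28 Langerhans comparison cells, 2 sets with little CCR7 that are defined below, so class II by itself does not separate dendritic cells from these. The 6 cells below 10 class II UMIs were 3 in each library. A cryopreserved cell among them was rich in epidermal keratins, with 178 KRT1 and 250 KRT10 UMIs. Another held 5 UMIs each of CD3D, a T cell receptor subunit, and BLK, a lymphocyte kinase. Of the rest, 1 fresh and 1 cryopreserved cell had 2 and 4 UMIs of CD2, an adhesion receptor of T and NK cells, beside IL7R. The label of dendritic cell thus goes against the class II counts of these 6 cells, and the cells are called CCR7-high cells here, after their rule.

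The conventional dendritic markers outside class II and its escort CD74, which are FLT3, ZBTB46, CD86 and CIITA, summed to 1625 CPM in fresh and 1266 CPM in cryopreserved CCR7-high cells. They were at 64.0 and 49.9 CPM in all other filtered cells, at 1601 and 1063 CPM in the Langerhans comparison cells and at 347 and 149 CPM in the macrophage comparison cells. With class II and CD74 the 8 markers summed to 50520 and 64889 CPM, against 53151 and 61036 CPM in the Langerhans and 14298 and 11613 CPM in the macrophage comparison cells. Of the 9 markers listed for CCR7-high dendritic cells 7 were found beside CCR7 itself, and they summed to 4817 and 4693 CPM against 460 and 548 CPM in all other cells, 3846 and 4058 CPM in the Langerhans and 1404 and 1261 CPM in the macrophage comparison cells. The 12 T cell markers other than CD3E, which the rule held at 0, summed to 45.4 and 98.5 CPM against 2456 and 2199 CPM in the T cells. They were at 95.9 and 93.1 CPM in all other cells, at 25.2 and 32.1 CPM in the Langerhans and at 18.7 and 25.2 CPM in the macrophage comparison cells. The CCR7-high cells of both libraries were thus above these last sets. CD8A and CD8B were at 0 in both libraries, and CD3G was at 0 in the T cells too. The most abundant T marker was CD2, and 1 cryopreserved cell held 26 of its 48 UMIs. B cell markers summed to 63.6 and 61.9 CPM against 76.7 and 79.7 CPM in all other cells, with CD79A the most abundant. They were at 1615 and 1459 CPM in the T cells, so this list does not read B cells alone. In the Langerhans comparison cells they were at 25.2 and 51.4 CPM, and in the macrophage comparison cells at 41.6 and 47.2 CPM. MS4A1 and CD79B were at 0, but all other cells held no more than 1 and 5 UMIs of them. Fibroblast markers outside the collagens of the rule summed to 37.5 and 17.7 CPM against 6396 and 5881 CPM in all other cells. Keratinocyte markers other than KRT5, which the rule limits, summed to 29.5 CPM fresh and 708 CPM cryopreserved, and with KRT5 included the keratin-rich cell held 565 of the 604 cryopreserved UMIs. Macrophage markers were a different matter. They summed to 3659 and 2902 CPM, with C1QA the most abundant in the fresh and C1QB in the cryopreserved library, against 764 and 1308 CPM in all other cells. The macrophage comparison cells were at 18535 and 23870 CPM and the Langerhans comparison cells at 567 and 411 CPM. Natural killer cell markers summed to 95.3 and 87.1 CPM, nearly all of it NKG7, against 58.4 and 74.5 CPM in all other cells and 1036 and 1038 CPM in the T cells. Plasmacytoid dendritic markers summed to 373 and 388 CPM against 433 and 323 CPM in all other cells, mast cell markers to 198 and 169 CPM against 203 and 174 CPM, and endothelial markers to 106 and 84.6 CPM against 291 and 215 CPM. The part of other cells in the results below was not tested. A doublet caller (Scrublet) marked 3 fresh and 35 cryopreserved filtered cells, none of them CCR7-high. The shares of doublets called, 0.108% fresh and 0.829% cryopreserved, were so small that the result says little in either library. LAMP3, CLEC9A, CLEC10A, ITGAX, SIRPA and CD1A could not be matched by name and were not analysed here.

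Langerhans and macrophage cells under the same limits but with fewer than 5 CCR7 UMIs served for comparison beside all other filtered cells. Langerhans comparison cells had at least 3 UMIs of CD207 (langerin, the lectin of Birbeck granules) and numbered 11 fresh and 28 cryopreserved. Macrophage comparison cells had at least 10 UMIs of the complement genes C1QA, C1QB and C1QC together and none of CD207, and numbered 107 and 214. The T cells above, which had no limit on CCR7, were a further set. A gene was counted as higher or lower when its CPM differed at least 2-fold in the same direction in both libraries. Against all other filtered cells 1018 of 12108 genes were higher (8.41%) and 3427 were lower (28.3%), and the median log2 ratio over all genes was -0.61 fresh and -0.55 cryopreserved. The share of each gene list is to be read against these values, and the lists were chosen with earlier results of these data known.

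Class II molecules carry peptides to CD4+ T cells. Of 10 MHC class II genes 8 were higher, with a median log2 ratio of 3.76 fresh and 3.99 cryopreserved. SLA-DRA, a class II alpha chain (chr7:24825037-24830650 in Sscrofa11.1), had a median of 185 UMIs per cell (highest 431) in the fresh and 144.5 (highest 447) in the cryopreserved library. It stood at 10958 and 12563 CPM, which was 29.8-fold (29.0 to 30.6) and 27.4-fold (26.7 to 28.1) above all other cells. CD74, the chain that escorts class II to the endosome, was at 20378 and 28543 CPM, and every CCR7-high cell of both libraries held it. CIITA, the coactivator of class II transcription, was at 283 and 294 CPM against 17.2 and 11.2 CPM. Of 7 MHC class I genes 3 were higher.

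Of 14 costimulation and checkpoint genes, most of them ligands that T cells read, 10 were higher and 1, TNFRSF9, was lower, with medians of 3.31 and 3.24. CD80 was at 740 CPM in the fresh and 644 CPM in the cryopreserved library, 30.8-fold (27.7 to 34.2) and 27.3-fold (24.4 to 30.5) above all other cells. CD86, its partner ligand of CD28, was at 919 and 678 CPM, 30.1-fold and 27.4-fold above them. PDCD1LG2, which encodes the inhibitory ligand PD-L2, was at 296 and 239 CPM, 44.9-fold (37.3 to 54.2) and 35.0-fold (28.8 to 42.4). CD274, which encodes PD-L1, was at 71.5 and 64.4 CPM against 4.43 and 5.10 CPM and had a UMI in 23 of 53 and 28 of 64 cells. CD40, the receptor through which T cells license dendritic cells, was at 334 and 361 CPM against 43.6 and 45.0 CPM. When each cell was thinned to 3000 UMIs, which left no CCR7-high cell out, 69.8% of fresh and 70.3% of cryopreserved CCR7-high cells still held CD80. Without thinning these shares were 88.7% and 82.8%, and those of fibroblast-like cells 3.01% and 2.63%.

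Of the dendritic lineage genes 13 of 16 were higher, with medians of 3.09 and 3.13. FLT3, the receptor of the cytokine that sustains dendritic cells, was at 376 CPM fresh and 231 CPM cryopreserved against 6.88 and 6.16 CPM. It had a UMI in 34 of 53 and 35 of 64 cells. IRF4, a transcription factor of migrating dendritic cells, was at 241 and 369 CPM, and IRF8, which directs cross-presenting dendritic cells, at 606 and 503 CPM. IRF8 was also at 419.6 and 677.5 CPM in the macrophage comparison cells, and at 245.9 and 282.5 CPM in the Langerhans comparison cells. KLF4 was the only one of the 16 that was lower, at 39.7 and 80.8 CPM against 565 and 605 CPM.

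Of the NF-kB pathway 6 of 20 genes were higher, with medians of 0.98 and 0.60. The 6 were REL, NFKB2, IKBKB, MAP3K14, NFKBIE and TRAF1. REL, an NF-kB subunit active in lymphoid and dendritic cells, was at 1757 CPM fresh and 1197 CPM cryopreserved against 403 and 352 CPM, and all CCR7-high cells held it. IKBKB, the kinase that marks the inhibitor for destruction, was at 194 and 162 CPM against 50.8 and 47.8 CPM. MAP3K14, the kinase that starts the non-canonical branch, was at 469 and 527 CPM against 111 CPM in either library. NFKBIA, the inhibitor itself and a target of the pathway, was at 1878 and 1463 CPM against 1580 and 1526 CPM, and so close to the other cells. NFKBIZ was lower.

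Survival, maturation and migration genes moved in part. BCL2A1, an NF-kB target that blocks apoptosis, was at 2064 CPM fresh and 1823 CPM cryopreserved, with medians of 27 and 17.5 UMIs per cell, and was 29.9-fold (28.1 to 31.8) and 20.9-fold (19.6 to 22.2) above all other cells. BIRC2 and CFLAR, both inhibitors of caspase activation, were the other higher genes among 7 survival genes. Of 16 maturation and migration genes other than CCR7, which chose the cells, 6 were higher, namely BCL2A1, CD83, CXCR4, DUSP5, GPR183 and MARCKS, and LAD1 and NET1 were lower. CD83, a surface protein of mature dendritic cells that stabilises class II and CD86, was at 1988 and 1720 CPM against 141 and 154 CPM. GPR183, an oxysterol receptor that positions immune cells in lymphoid tissue, was at 2779 and 2291 CPM against 165 and 194 CPM. FSCN1, the actin bundler of dendritic cell extensions, was uneven. It had a UMI in 22 of 53 fresh cells and 36 of 64 cryopreserved cells, at 146 and 412 CPM against 116 and 175 CPM.

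Secreted signals included chemokines and cytokines. CXCL8, the neutrophil attractant, was at 3633 CPM fresh and 3765 CPM cryopreserved against 111 and 132 CPM, with 0 to 295 and 0 to 175 UMIs per cell. CCL5, which attracts T cells and monocytes, was at 3310 and 4755 CPM against 132 and 188 CPM. IL1A, an alarm cytokine, was at 1269 and 591 CPM against 40.1 and 41.8 CPM. Of 14 regulatory genes 8 were higher and 2, AXL and IL2RA, lower. Of 22 uptake and lysosome genes 11 were higher and CD209 lower, and of 22 cytoskeleton genes 9 were higher and MYH9 lower. Of 12 cytokine genes 7 were higher, and CSF3, IL33 and IL6 were lower. Chemokines split evenly, with 4 of 13 higher and 4 lower. CCL22 and CCL17, ligands of CCR4 that are often used to mark mature dendritic cells, were found in 10 and 3 of the 53 fresh cells and in 8 and 7 of the 64 cryopreserved cells. CCL22 rested on 43 fresh and 14 cryopreserved UMIs and CCL17 on 7 and 71, and the part of free RNA in these counts was not tested. IL12B, a subunit of IL-12 and IL-23, was barely captured in either library, with 1 UMI in the CCR7-high cells and 1 in all other cells, so its level could not be read at this depth.

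Beyond the lists, the genes with the highest ratio to all other cells after CCR7 included CLEC5A, P2RY6, PKIB, TIFAB, DAPP1, CD72 and TSPAN33. CLEC5A, a myeloid lectin that signals through DAP12, was at 148 and 159 CPM, 81.3-fold (59.1 to 113) and 45.3-fold (35.1 to 58.5) above the others. DAPP1, an adaptor of phosphoinositide signalling, was at 339 and 325 CPM, 26.8-fold and 29.3-fold above them. TIFAB was at 102 and 119 CPM against 1.94 and 4.32 CPM. P2RY6, a receptor for UDP, rested on 32 and 41 UMIs in 14 and 17 cells.

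**Figure D2:**
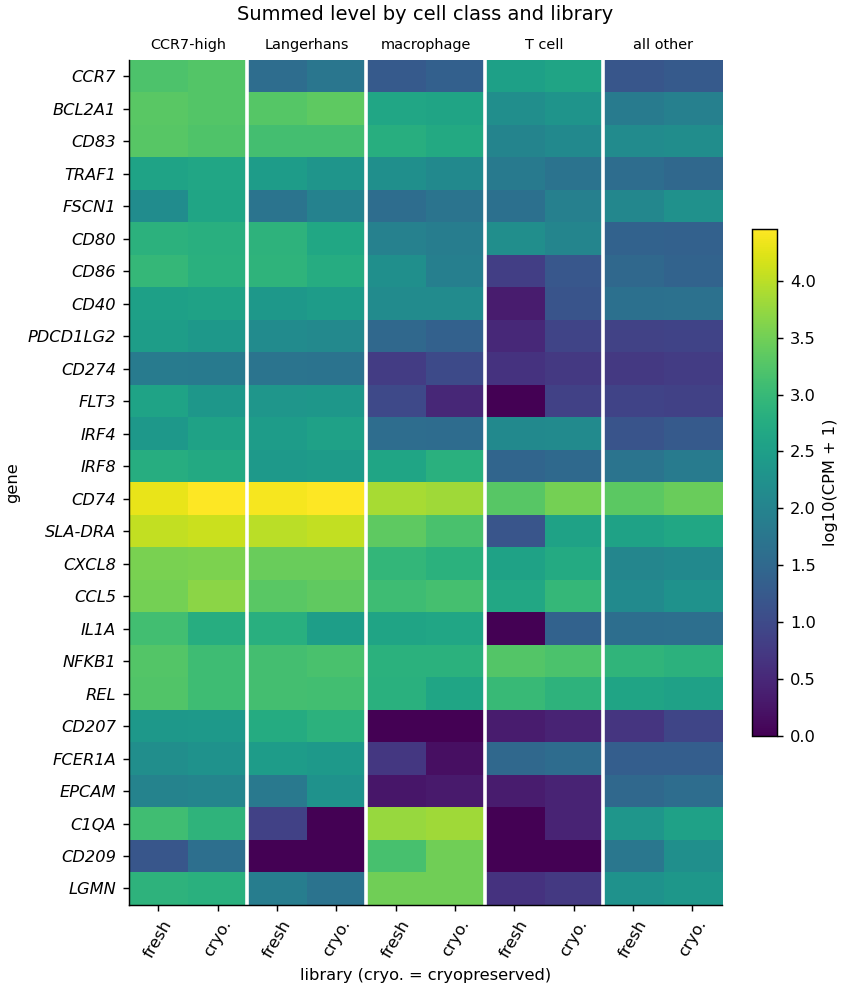
Level of 26 genes in 5 classes of cells of each library, as log10 of CPM plus 1, with brighter tiles for higher levels. Each tile is the summed UMIs of 1 gene in 1 class, and SLA-DRA, CD80, CD86 and BCL2A1 are bright in both the CCR7-high and the Langerhans comparison cells, while C1QA and LGMN are brightest in the macrophage comparison cells.

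The Langerhans comparison cells had the smallest share of genes past 2-fold among these classes. There 175 of 4531 genes (3.86%) were higher in the CCR7-high cells and 81 (1.79%) were lower, though the comparison cells were few and held 158606 and 311458 UMIs in all. None of 8 class II genes, none of 19 NF-kB genes, none of 11 lineage genes and none of 6 survival genes differed 2-fold in both libraries. Higher were 3 of 12 costimulation and checkpoint genes (HAVCR2, SLAMF1 and SLAMF7), 4 of 18 uptake and lysosome genes (CTSD, CTSL, LAMP1 and LGMN), 2 of 9 chemokines (CCL2 and CCL8), 2 of 7 cytokines (EBI3 and IL23A) and 2 of 10 regulatory genes, and 1 of 4 MHC class I genes was lower. BCL2A1 was at 1942 and 2222 CPM in the Langerhans comparison cells, close to its level in the CCR7-high cells, and CD80 was at 763 and 450 CPM. BCL2A1, which had been listed as a marker of CCR7-high dendritic cells, thus differed less than 2-fold from CD207+ cells with little CCR7. The maturation and migration list without CCR7 had 3 of 14 genes higher, CXCR4, FSCN1 and TNFAIP2. CXCR4, a second chemokine receptor of migrating cells, was at 346 and 456 CPM against 170 and 77.1 CPM. The highest genes against the Langerhans comparison cells were C1QA, C1QB and C1QC, followed by CCR7, which the rule set, and by ABCA1, SCARB2 and LGMN. Of 7 macrophage markers tested there, 4 were higher. The lowest genes included EFNA5 and EPHA4, an ephrin and an ephrin receptor, FLT1, a VEGF receptor, and LTC4S, the leukotriene C4 synthase. Their log2 ratios, fresh and cryopreserved, were -6.43 and -5.07 for EFNA5, -2.13 and -2.96 for EPHA4, -3.44 and -3.63 for FLT1 and -2.33 and -2.85 for LTC4S, and EFNA5 rested on 2 and 5 UMIs in the CCR7-high cells. CD207 chose the comparison cells, so its lower level in the CCR7-high cells is not read further.

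Against the macrophage comparison cells 389 of 7019 genes (5.54%) were higher and 991 (14.1%) were lower. All 9 macrophage markers tested were lower, among them the C1Q genes that chose the comparison, and so were 12 of 22 genes of antigen uptake and lysosome. CD209, a lectin that binds pathogens, was the lowest of the named genes, with a log2 ratio of -6.24 or lower in both libraries, and HSD11B1, LYVE1, C4BPA and FOLR2 were also among the 10 lowest. Higher in the CCR7-high cells were 8 of 13 lineage genes, 4 of 9 class II genes, 6 of 12 costimulation genes and 4 of 14 maturation genes without CCR7, and 3 of 19 NF-kB genes. The lineage genes KLF4 and WDFY4 and the costimulation gene TNFSF9 were lower. Of the other lists, 4 of 11 chemokines were higher and 4 lower, 2 of 9 cytokines were higher and 2 lower, 5 of 14 regulatory genes were higher, and 2 of 22 cytoskeleton genes were higher and 1 lower. Against the T cells 824 of 6532 genes (12.6%) were higher and 1615 (24.7%) were lower. FLT3 was at 8.50 and 2.15 CPM in the macrophage comparison cells, CD80 at 88.3 and 75.1 CPM and BCL2A1 at 426 and 402 CPM.

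The CCR7-high cells were of more than 1 kind. At least 10 UMIs of the C1Q genes together were present in 16 of 53 fresh cells (30.2%, interval 18.3 to 44.3%) and 23 of 64 cryopreserved cells (35.9%, interval 24.3 to 48.9%). At least 2 UMIs of CD207 were present in 15 of 53 (28.3%, interval 16.8 to 42.4%) and 23 of 64 (35.9%, interval 24.3 to 48.9%). No fresh cell and 1 cryopreserved cell met both limits. Neither C1Q at 10 UMIs nor any CD207 was found in 21 fresh and 13 cryopreserved cells. C1Q was at 0 in 29 and 30 CCR7-high cells. Fibroblast-like cells with any C1Q UMI made up 4.60% of their class fresh and 4.53% cryopreserved. Among all filtered cells under the same limits with at least 3 CD207 UMIs, the CCR7-high cells were 15 of 26 fresh (57.7%) and 18 of 46 cryopreserved (39.1%). Among those with at least 10 C1Q UMIs and no CD207 they were 16 of 123 fresh and 22 of 236 cryopreserved cells. The intervals of these shares, 36.9 to 76.7% and 25.1 to 54.6% for CD207+ cells against 7.62 to 20.3% and 5.94 to 13.8% for C1Q+ cells, cover counting error only.

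**Figure D3:**
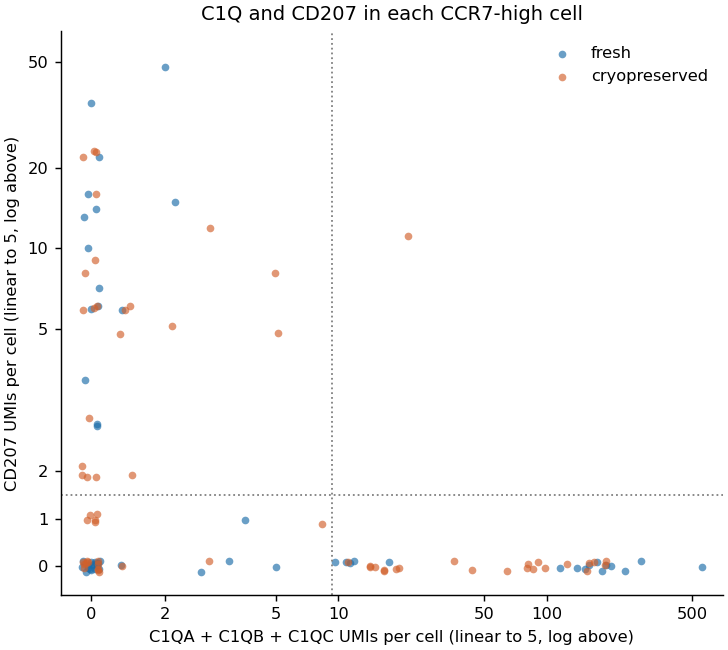
C1Q UMIs (C1QA, C1QB and C1QC together) against CD207 UMIs in each CCR7-high cell of the fresh and the cryopreserved library, with points moved slightly apart and dotted lines just below 10 C1Q and 2 CD207 UMIs. The cells lie along both axes, and 1 cell, in the cryopreserved library, is past both lines.

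C1Q+ and CD207+ CCR7-high cells were set side by side, a split chosen after the data were seen. Of 1640 genes 102 (6.22%) were at least 2-fold higher with C1Q in both libraries and 57 (3.48%) with CD207. Antigen uptake and lysosome genes lay on the C1Q side, with 9 of 17 higher there and none on the CD207 side, and so did 6 of 6 macrophage markers, 3 of which made the split. LGMN, the lysosomal protease legumain, was at 1663 and 1506 CPM with C1Q against 120 and 199 CPM with CD207. CTSS, the protease that trims the class II invariant chain, was at 1684 and 1322 CPM against 394 and 506 CPM. MRC1, the mannose receptor, was at 289 and 180 CPM against 37.5 and 47.3 CPM. IRF8 was also higher with C1Q, at 914 and 1015 CPM against 420 and 216 CPM, and CXCR4 was at 566 and 805 CPM against 161 and 219 CPM.

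On the CD207 side were FCER1A, the IgE receptor chain found on Langerhans cells, at 432 and 388 CPM against 12.8 and 48.7 CPM, and EPCAM, an epithelial adhesion protein of Langerhans cells, at 244 and 203 CPM against 8.51 and 33.7 CPM. IRF4 was at 510 and 574 CPM with CD207 against 12.8 and 244 CPM with C1Q. CD80 was at 1276 and 1012 CPM against 493 and 378 CPM, and MAP3K14 at 747 and 759 CPM against 174 and 281 CPM. None of 7 class II genes differed 2-fold in both libraries, where 9.70% of all genes did in either direction. SLA-DRA was at 10250 and 12531 CPM with C1Q and 12140 and 16101 CPM with CD207. CCR7 was at 1514 and 2323 CPM with C1Q and 2064 and 2055 CPM with CD207. The CCR7-high cells outside both sets were not compared as a set. XCR1, the receptor of cross-presenting dendritic cells, was found in 5 fresh cells and in 1 cryopreserved cell, and the latter held 8 UMIs of it and 6 of the 7 cryopreserved UMIs of CLNK, an adaptor.

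The CCR7-high cells with C1Q and those with CD207 were also set against cells with little CCR7 that held the same gene. The C1Q+ CCR7-high cells (16 fresh, 23 cryopreserved) were compared with the macrophage comparison cells, and the CD207+ ones with under 10 C1Q UMIs (15 and 22) with the Langerhans comparison cells. These pairs, and the genes named for them, were chosen after the data were seen. In the C1Q pair 204 of 6350 genes (3.21%) were higher and 650 (10.2%) lower in the CCR7-high cells, and in the CD207 pair 39 of 2835 (1.38%) higher and 107 (3.77%) lower. Both pairs also differed in cell type markers. In the C1Q pair 4 of 9 macrophage markers, CD163, CD209, MRC1 and MSR1, were lower. There 5 of 8 conventional dendritic markers, CD86, FLT3, SLA-DQB1, SLA-DRA and SLA-DRB1, were higher. In the CD207 pair 1 of 8 conventional dendritic markers, ZBTB46, and 1 of 3 Langerhans markers, HPGDS, were lower. CCR7 was thus not the only difference between the cells of either pair. Of 2772 genes tested in both pairs, 16 (0.577%) were higher in both pairs and both libraries and 14 (0.505%) were lower.

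The 16 higher genes were CCR7, which the rule set, AREG, CD274, GPAT4, IL7R, PDCD1LG2, PIGN, PTGS2, RGS18, RNF121, RUNX1, STAT4, TIMP1 and 3 genes without a symbol. Both ligands of PD-1 were among them, but CD274 was not past 2-fold throughout with at least 10 CCR7 UMIs, with at least 3 CD207 UMIs in both sets, with CCR7 at 0 in the comparison cells or without the cell that held most of its UMIs. PDCD1LG2 was 5.98-fold and 9.91-fold higher in the fresh and cryopreserved C1Q pair, and 3.06-fold (1.92 to 5.07) and 3.02-fold (2.07 to 4.49) higher in the CD207 pair. CD274 was 13.4-fold and 6.16-fold higher in the C1Q pair, and 2.38-fold (1.08 to 5.98) and 2.17-fold (1.14 to 4.33) higher in the CD207 pair. CD274 rested on 15 to 32 UMIs in each set of CCR7-high cells. IL7R, the receptor chain shared by IL-7 and TSLP, was 6.68-fold and 5.35-fold higher in the C1Q pair and 6.61-fold and 7.26-fold higher in the CD207 pair, and the lower ends of the intervals lay between 2.97-fold and 4.06-fold. IL7R is also a T cell gene, at 414 and 312 CPM in the T cells. CD2, the T cell marker with enough UMIs to be tested in the C1Q pair, was higher there too, with log2 ratios of 1.74 and 3.25 on 6 and 30 UMIs. In the cryopreserved library 1 cell held 26 of those 30 CD2 UMIs. The part of T cell RNA in the level of IL7R was not tested.

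RUNX1, a transcription factor of blood cells, was spread over many cells, with a UMI in every CCR7-high cell of both pairs. It stood at 3751 and 4289 CPM against 1210 and 1175 CPM in the C1Q pair and at 9052 and 6021 CPM against 3695 and 2585 CPM in the CD207 pair. TIMP1, an inhibitor of matrix proteases, was at 3279 and 4469 CPM against 606 and 822 CPM, and at 3772 and 5673 CPM against 1583 and 2228 CPM. AREG, an epidermal growth factor family ligand, rested on few cells, between 3 and 9 in each set. In the fresh CD207 pair its comparison cells had no UMI, and it was at least 9.92-fold higher there, against a floor of 3 UMIs over the group. PTGS2, the inducible cyclooxygenase that makes prostaglandins, was 2.05-fold and 3.78-fold higher in the C1Q pair and 28.3-fold and 5.41-fold higher in the CD207 pair. In the fresh CD207 pair the comparison cells held only 2 UMIs (interval 7.62 to 237), and 1 CCR7-high cell held 72 of the 95 UMIs of its set.

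The 14 lower genes included KLF4 and MEF2C, transcription factors of myeloid cells, and DNAJB1 and HSP70.2, which encode a heat shock co-chaperone and its partner. DNAJB1 was at 136 and 86.2 CPM against 462 and 340 CPM in the C1Q pair, and at 26.3 and 37.1 CPM against 132 and 328 CPM in the CD207 pair. HSP70.2 has near-identical copies whose reads may be split between them, and its value is uncertain. In addition, 1 fresh C1Q+ cell held 327 of the 348 UMIs of that set. Without the cell that held most UMIs of each gene in each class, PDCD1LG2, IL7R, RGS18, RUNX1 and TIMP1 remained among the higher genes and DNAJB1 and MEF2C among the lower, while AREG, CD274, PTGS2, STAT4, KLF4 and HSP70.2 did not. KLF4 was 10.1-fold and 3.55-fold lower in the C1Q pair and 5.04-fold and 4.88-fold lower in the CD207 pair, where the fresh value rested on 2 against 6 UMIs and its interval included no difference.

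The counts for the gene lists in the pairs are to be read against 3.21% of all genes higher and 10.2% lower in the C1Q pair and 1.38% and 3.77% in the CD207 pair, shares at which a short list has few or no genes past 2-fold. In the C1Q pair 3 of 9 class II genes were higher, SLA-DRA, SLA-DRB1 and SLA-DQB1, and SLA-DRA was 4.54-fold and 8.21-fold higher. In the CD207 pair none of 8 was, and SLA-DRA was 1.25-fold (1.18 to 1.33) and 1.42-fold (1.36 to 1.49) higher. CD86 was 6.56-fold and 8.95-fold higher in the C1Q pair and 1.13-fold (0.910 to 1.42) and 1.39-fold (1.13 to 1.70) in the CD207 pair. Whether the pairs differ could not be tested with 1 library per condition. Uptake and lysosome genes were lower in the C1Q pair, 8 of 22, including the scavenger receptors CD163 and MSR1, CD209, MRC1 and the proteases CTSD and CTSL. CD163, CD209, MRC1 and MSR1 are the macrophage markers lower in this pair, and the part of cell type in these counts was not tested. None of 13 differed in the CD207 pair. Of the NF-kB genes 2 of 19, REL and MAP3K14, were higher in the C1Q pair and none of 17 in the CD207 pair. FSCN1 was 6.25-fold (3.03 to 15.0) and 5.98-fold (4.01 to 9.21) higher in the CD207 pair. In the C1Q pair it was 1.56-fold (0.790 to 2.89) fresh and 8.69-fold (6.57 to 11.5) cryopreserved. NR4A3, another gene of the maturation list, was past 2-fold higher in the C1Q pair and past 2-fold lower in the CD207 pair.

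**Figure D4:**
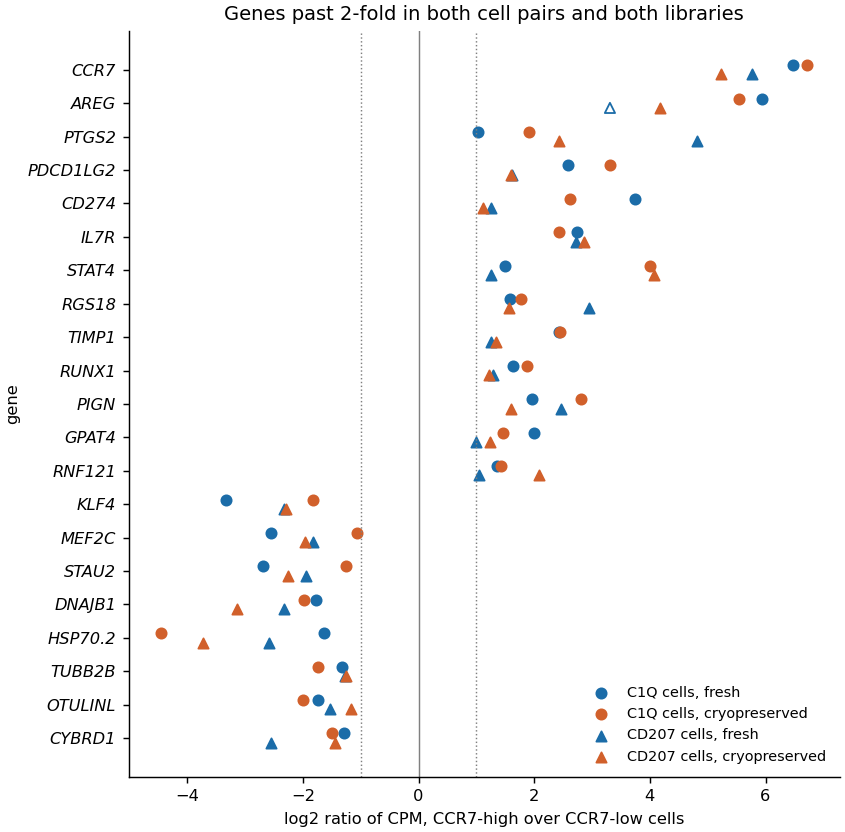
Log2 ratio of CPM, CCR7-high over CCR7-low cells, for 21 of the genes past 2-fold in both pairs and both libraries; circles are the C1Q pair, triangles the CD207 pair, and the open triangle is a bound against 3 UMIs. Dotted lines mark 2-fold, and the points of PDCD1LG2, IL7R and RUNX1 lie to the right of them in all 4 comparisons and those of DNAJB1 to the left.

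Several genes owed their level to 1 cell, which a sum over cells hides. In the cryopreserved library 1 cell held 127 of 128 UMIs of CXCL9, an interferon-induced chemokine, and 58 of 71 UMIs of CCL17, beside 76 UMIs of CCR7. IL10, an inhibitory cytokine, had 165 of its 231 fresh UMIs in 1 cell, and IL23A, a subunit of IL-23, had 59 of 64 fresh and 17 of 22 cryopreserved UMIs in 1 cell each, both of them C1Q+. All 25 fresh UMIs of IDO1, the tryptophan-degrading enzyme, were in 1 CD207+ cell. These genes were picked for this after their values were seen.

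The last comparison set the CCR7-high cells of the cryopreserved library against those of the fresh one. Of 2464 genes whose UMIs in the 2 libraries summed to 100 or more, 112 (4.55%) differed at least 2-fold between cryopreserved and fresh CCR7-high cells, 32 (1.3%) higher and 80 (3.25%) lower in the cryopreserved library. The median absolute log2 ratio was 0.31. Over the same genes it was 0.23 in all other filtered cells, where 14 genes (0.568%) were past 2-fold, but the CCR7-high cells held far fewer UMIs (881099 and 791951) than the others. Classes smaller than all other cells together were compared over the same genes where they could be computed. Past 2-fold were 298 of 2438 (12.2%) in the Langerhans, 174 of 2442 (7.13%) in the T and 80 of 2459 (3.25%) in the macrophage comparison cells. The share in the CCR7-high cells lay within the range of these classes. The macrophage comparison cells (1177208 and 1864188 UMIs) were larger than the CCR7-high cells in both libraries. The T cells (865616 and 1130606 UMIs) were larger in the cryopreserved library only. In 40 of the 112 genes 1 cell held over 20% of the UMIs. In the other filtered cells 95 of the 112 differed in the same direction, 8 of them past 2-fold, and 17 in the opposite direction. The split of higher and lower genes depended on the limits. With at least 3 CCR7 UMIs it was 56 higher and 60 lower, with at least 10 it was 16 and 70, with a minimum of 50 UMIs per gene 110 and 157, and without the cell that held most UMIs of each gene 23 and 31.

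None of 8 class II genes, 17 NF-kB genes and 8 lineage genes was past 2-fold, beside 4.55% of all genes, a share that leaves few or none in lists of this size. Past 2-fold were 3 of 13 maturation and migration genes, with FSCN1 higher and ARHGAP22 and NR4A3 lower, 3 of 7 chemokines, with CXCL9 higher and CCL2 and CCL8 lower, and 2 of 5 cytokines, IL1A and IL10, both lower. In CXCL9, CCL2, CCL8 and IL10 1 cell held over 20% of the UMIs. In the cryopreserved library CD74 was 1.40-fold higher (1.37 to 1.43) and CCL5 1.44-fold (1.37 to 1.51). The log2 ratio was -0.18 for BCL2A1, -0.44 for CD86, -0.70 for FLT3, -0.59 for NFKB1 and -0.55 for REL. Of 9 costimulation genes 1, SLAMF7, was past 2-fold, with a log2 ratio of -1.47, and 1 cell held 21.2% of its UMIs. Survival genes were below 0 in 4 of 4 and class II genes above 0 in 7 of 8, with medians of -0.44 and 0.23 beside -0.06 over all genes. Over all 2464 genes 1373 were below 0 and 1091 above. Macrophage markers were below 0 in 6 of 7, with a median of -0.47. The 2 keratinocyte markers tested, KRT1 and KRT10, were past 2-fold higher. The keratin-rich cryopreserved cell held 95.7% of the KRT1 and 92.6% of the KRT10 UMIs of all CCR7-high cells. Cells with neither C1Q at 10 UMIs nor any CD207 made up 39.6% of the fresh and 20.3% of the cryopreserved CCR7-high cells. The part of cell type in these values was not tested.

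STMN1, a microtubule regulator of dividing cells, had the highest ratio among genes with no cell over 20% of the UMIs. It had 29 fresh and 132 cryopreserved UMIs and a log2 ratio of 2.34, against 0.74 in all other cells. The ratio was 1.43 in the Langerhans and 0.32 in the macrophage comparison cells. In the cryopreserved library 1 cell held 31 of the 132. Markers of dividing cells summed to 27.2 CPM fresh and 101 CPM cryopreserved in the CCR7-high cells and to 92.6 and 129 CPM in all other cells, with PCNA the most abundant, and their part in the level of STMN1 was not tested. FSCN1 was 2.81-fold higher (2.29 to 3.48), with a log2 ratio of 1.49 against 0.59 in all other cells. It was at 0.88 in the Langerhans and 0.40 in the macrophage comparison cells. AREG was 3.18-fold higher (2.54 to 4.01), with a log2 ratio of 1.67 against 0.34 in all other cells. Its ratio was 0.44 in the Langerhans and 0.66 in the macrophage comparison cells, and 1 CCR7-high cell held 13.3% of its UMIs. ARPC1B, a subunit of the actin-nucleating Arp2/3 complex, had log2 ratios of 1.48 and 1.44 and so differed alike in the CCR7-high and all other cells. Lowest among the same genes was ND3, a mitochondrial subunit of complex I, with 836 fresh and 126 cryopreserved UMIs and log2 ratios of -2.58 in the CCR7-high cells and -2.37 in all others. RPS20, a ribosomal protein, followed the same course at -1.43 and -1.06. TGFBR3, a co-receptor of TGF-beta, had 86 fresh and 16 cryopreserved UMIs (log2 ratio -2.27), and MAPK8, the JNK1 kinase, had 91 and 30 (-1.45). IL1A was lower at -1.10 while all other cells stood at 0.06, and its ratio was -1.09 in the Langerhans comparison cells and 0.10 in the macrophage comparison cells. The fresh CCR7-high cells were deeper than the cryopreserved ones, and the part of depth in these values was not tested.

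**Figure D5:**
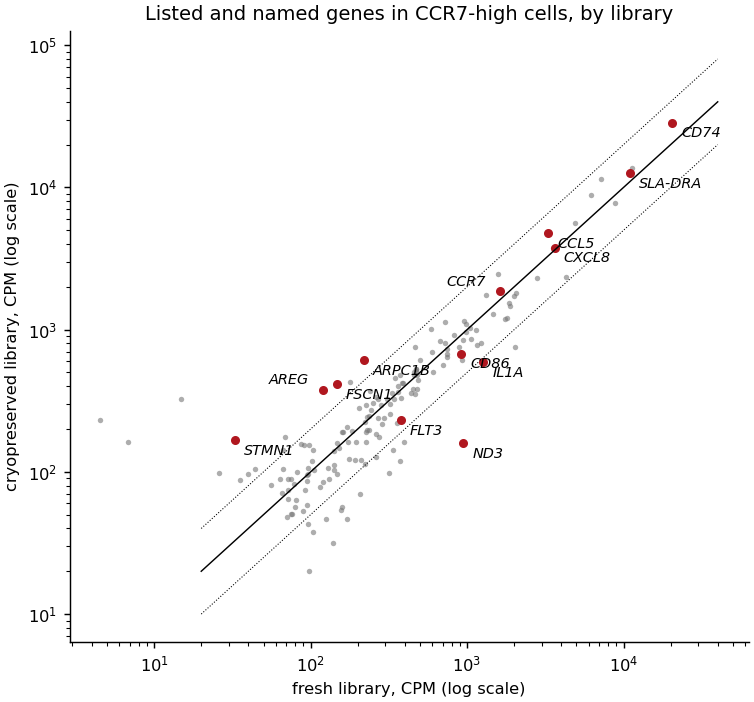
CPM in cryopreserved against fresh CCR7-high cells on log axes, for the listed and named genes with a sum of 100 or more UMIs over the libraries; each point is 1 gene, and named genes are red. The solid line marks equal levels and the dotted lines 2-fold, and CCR7, CD74 and CD86 lie between the dotted lines while STMN1, FSCN1 and AREG lie above and ND3 below them.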

How the data were processed

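Single-cell libraries of fresh and cryopreserved pig skin cells, 1 each, were analysed. The authors deposited UMI counts per gene and barcode, made with Cell Ranger 4.0.0 and STAR 2.5.1b against Sscrofa11.1 with Ensembl annotation, as their methods state. The extraction text in the labels describes freezing for both libraries, and titles and treatment labels, which set the groups, name 1 as fresh. The matrices held 31908 features, of which 16719 carried a symbol and 772 received one from an NCBI gene name table, and 274 of 321 listed symbols were found. The members, gene lists and comparison cells were chosen with earlier results of these data known.

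Counts were summed over the cells of a class within each library and divided by the summed total (CPM). Ratios were given for each library with exact conditional 95% intervals, and shares with exact binomial (Clopper-Pearson) intervals. A count of 0 was set to a floor of 3 counts over the class for a fold. Genes whose UMIs summed to 100 or more over the libraries entered the comparison of libraries, and a gene was called past 2-fold at an absolute log2 ratio of 1. The genes named as highest against other cells had at least 50 UMIs in all members as a whole and a UMI in at least 25% of members of each library. Named were the 25 highest against all other cells, and the 10 highest and 10 lowest against Langerhans and macrophage comparison cells by the ratio nearer to no change of the libraries (for the lowest, with no minimum in the members, among genes with a UMI in 25% of the comparison cells of each library), and the 10 highest and 10 lowest between libraries among genes with no cell over 20% of their UMIs. Members of the lists could also be named. Cells were thinned to 3000 UMIs (seed 1). The filtered cells summed to 32274985 fresh and 36687009 cryopreserved UMIs. No test was possible with 1 library per condition. The procedure was tested on simulated data. Scaling by TMM (edgeR 4.0.16) and by size factors (DESeq2 1.42.0, R 4.3.3) was tried as an alternative. Other steps used Python 3.11.15, numpy 2.4.6, scipy 1.17.1, pandas 2.3.3, scanpy 1.11.5 for Scrublet, and matplotlib 3.10.9.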

Additional observations from a re-analysis of the deposited data

Results flagged for a closer look

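Outside the study's maxima on genes, UMIs or mitochondrial share, 6 fresh and 3 cryopreserved barcodes met the rest of the CCR7 rule. Of these, 4 fresh and 3 cryopreserved held at least 10 class II UMIs, and 3 fresh and 1 cryopreserved were over the limit on genes.

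Among the listed and named genes with at least 100 UMIs and no cell over 20% of them, 6 had cryopreserved over fresh ratios that ran in opposite directions in the CCR7-high cells and in all other filtered cells, lay at least 1 apart on the log2 scale and had both counting intervals clear of no change. With 1 library per condition the difference was not tested. For C1QA the log2 ratio was -0.61 in the CCR7-high cells and 0.68 in the others, a difference of -1.295, for C1QC -0.31 and 0.84, a difference of -1.153, and for C1QB -0.16 and 0.97, a difference of -1.132. In the macrophage comparison cells the ratios were 0.23 for C1QA, 0.40 for C1QC and 0.52 for C1QB, between those of the CCR7-high and all other cells and above 0 like the latter, and these cells made up 3.86% of the fresh and 5.07% of the cryopreserved filtered cells. In the fresh library 1 CCR7-high cell held 25.3% of the C1QA UMIs. CTSD, the lysosomal protease cathepsin D, showed -0.66 and 0.65, a difference of -1.314. It was at -2.20 in the Langerhans comparison cells, the same direction as in the CCR7-high cells, and at 0.68 in the macrophage comparison cells. HBB, a globin of red blood cells, showed 0.66 and -1.45, a difference of 2.111, at 86 and 122 UMIs in the CCR7-high cells, and was at 0.39 in the Langerhans and 0.50 in the macrophage comparison cells, the same direction as in the CCR7-high cells. LAP3, an aminopeptidase, showed 1.29 and -0.09, a difference of 1.384, and was at -0.86 in the Langerhans and 0.001 in the macrophage comparison cells.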

How the results depend on the processing

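For the main counts and shares, 89 alternative values stayed close and 17 moved. The share of CCR7-high cells was 1.44% fresh and 1.07% cryopreserved with at least 10 CCR7 UMIs. Without any cell holding a T or B cell marker UMI it was 0.685% fresh and 0.829% cryopreserved, which turned the cryopreserved over fresh ratio from 0.794 to 1.21. This setting left 19 fresh and 35 cryopreserved cells and depends on depth. With CD207 at 0 the share was 1.33% and 0.829%. Genes past 2-fold between libraries numbered 267 with a minimum of 50 UMIs, 50 with 200 UMIs and 54 without the cell that held most UMIs of each gene. Genes higher and lower than other cells numbered 175 and 81 with Langerhans and 389 and 991 with macrophage comparison cells in place of all others. The share of cells with CD80 was 52.8% and 39.1% at 2000 UMIs and 88.7% and 82.8% without thinning. TMM and DESeq2 size factors moved the median log2 ratio by 0.003 and -0.07.

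With Langerhans comparison cells in place of all others, the lower of the 2 libraries' ratios was below 0 for 10 named genes, with log2 ratios of -0.19 for PKIB, -0.35 for C15orf48, -0.044 for CD80, -1.35 for ENSSSCG00000043154, -0.28 for P2RY6, -1.55 for CD207, -0.21 for FCRLA, -0.086 for SLA-DRB1, -0.43 for MGAM and -0.15 for TSPAN33. Of these, only CD207, ENSSSCG00000043154 and TSPAN33 were below 0 in both libraries. Among the genes of the pairs, 6 higher (CCR7, IL7R, PDCD1LG2, RGS18, RUNX1 and ENSSSCG00000039222) and 1 lower (DNAJB1) were called in every setting run. Without the cell that held most UMIs of each gene 8 of the 16 and 6 of the 14 remained. The cause of these moves was not tested. The Langerhans comparison cells held 158606 UMIs fresh and 311458 cryopreserved, which limits the precision of their values. No paired analysis was possible because each condition had 1 library.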
